A study of Mus musculus with 6 samples.

Results

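The genes described here are 44 genes of TGF-beta, activin and BMP signalling, chosen by name with earlier results of these data known. They are grouped as ligands, proteins of latency and processing, receptors, Smads, intracellular regulators, antagonists and targets. Of these, 43 were among the 17556 genes of the expression table and all 43 passed the filter on low counts, which left 13817 genes to test. The expression of Grem1, which encodes a secreted BMP antagonist, is not analysed here. Bulk RNAseq was performed on the left ventricles of 6 sibling mice, 6 to 10 weeks of age, collected 4 days post injury (dpi). Injury was a myocardial infarction (MI) made by permanently tying off the left anterior descending artery. All 6 mice carried floxed Yap on both alleles and floxed Wwtr1 on 1 allele, and all were fed tamoxifen citrate from surgery onwards. In 3 mice the tamoxifen-inducible recombinase MerCreMer was expressed from the endogenous periostin locus (Cre positive), and the other 3 had wild-type Periostin (Cre negative). Yap and Wwtr1, also called Taz, are transcriptional coactivators of the Hippo pathway. The comparison therefore asks how these genes differ when Yap and a copy of Wwtr1 can be removed from periostin-expressing myofibroblasts. MerCreMer is made where the periostin locus is active, whereas RNA came from the whole ventricle, and no group carried MerCreMer without floxed alleles.

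TGF-beta ligands are secreted in a latent form, held in the extracellular matrix by latent TGF-beta binding proteins (LTBPs), and act once released. Ligands of the superfamily bring together type II and type I receptor kinases, which phosphorylate Smad2 and Smad3 (TGF-beta and activin) or Smad1, Smad5 and Smad9 (BMP), and these enter the nucleus with Smad4. After MI the pathway is known for driving resident fibroblasts to become matrix-producing myofibroblasts, while inhibitory Smads, Smurf ubiquitin ligases, Ski-family corepressors and follistatins restrain it.

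Libraries held 13177888 to 14827579 estimated counts. Cre negative replicate 1 stood apart, with a chi-square per gene against the other libraries of 44.2 to 68.3, whereas other pairs of libraries gave 8.07 to 17.0 (1 is the value for counting noise alone). The same ventricle had the highest summed level of 8 cardiomyocyte markers (61839 TPM, against 50776 and 51300 in the other Cre negative and 45787 to 49759 in the Cre positive ventricles), and the sum was lower in each Cre positive ventricle than in any Cre negative one. It also had the lowest sum of 8 fibroblast markers (4254 TPM against 5555 to 6999), the lowest of 8 macrophage markers (3074 against 4034 to 4975) and the highest of 7 neutrophil markers (429 against 54.5 to 165). Of the 8 fibroblast markers it was the lowest ventricle for 4 and the highest for 2. Much of that sum was Col1a1 (1549 TPM against 2435 to 3260 elsewhere) and Col1a2 (812 against 1322 to 1775). Both are also among the TGF-beta response genes described below. Epicardial and mesothelial markers (5 genes) summed to 97.9, 48.1 and 29.6 TPM in Cre negative and to 137, 71.1 and 80.5 TPM in Cre positive ventricles. All 5 had log2 fold changes above 0 (median 0.63), and without Cre negative replicate 1 the median was 1.44 with an unadjusted p under 0.05 for 4. Leaving out the same ventricle moved the median log2 fold change of the cardiomyocyte markers from -0.31 to -0.12 (2 of 8 then lower with an unadjusted p under 0.05), of the fibroblast markers from 0.082 to -0.0017, of the macrophage markers from 0.035 to -0.21 (3 of 8 lower with an unadjusted p under 0.05) and of the 6 neutrophil markers tested from -0.54 to 0.53 (2 higher with an unadjusted p under 0.05). With all ventricles the cardiomyocyte marker Myl2 had a log2 fold change of -0.32 (edgeR, unadjusted p = 0.044, adjusted p = 0.714) and was lower in each Cre positive ventricle. Of 7 mural markers, 5 had log2 fold changes above 0 and 2 below (median 0.17, and 0.095 without Cre negative replicate 1). Among the 5, Cnn1 of smooth muscle (log2 fold change 0.61, edgeR, unadjusted p = 0.028, adjusted p = 0.714) and Cspg4 of pericytes (0.34, unadjusted p = 0.018, adjusted p = 0.714) were higher in each Cre positive ventricle, with Cre negative replicate 1 the lowest for both. Sums of endothelial, mural, T cell, B cell, red cell and skeletal muscle markers overlapped between the groups. TPM is a transcript level scaled to gene length and to a fixed total per library, and no marker in these lists was at 0 in all ventricles. Atrial markers (4 genes) summed to 16600 TPM in Cre positive replicate 1 and to 6881 to 9833 elsewhere, and 4 lung markers to 66.8 TPM in Cre positive replicate 3 and 0.34 to 1.74 elsewhere. Among the targeted genes, Yap1 was at 1547, 1473 and 1419 normalised counts in Cre negative replicates 1 to 3 and at 1615, 1436 and 1474 in Cre positive replicates, and Wwtr1 at 1616, 1463 and 1604 and at 1614, 1559 and 1661. The groups overlapped for both genes in RNA of the whole ventricle, and a count over a whole gene does not single out its floxed exons. Postn was at 12157, 24639 and 26862 in Cre negative and 12682, 14240.2 and 13486 in Cre positive ventricles (adjusted p = 0.714, and 0.0182 without Cre negative replicate 1). In bulk tissue, fewer cells of a type and less RNA per cell cannot be told apart, and the part of cell makeup in the results below was not tested.

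No member passed the test between genotypes. The adjusted p of the 43 members (edgeR's quasi-likelihood test with Benjamini-Hochberg adjustment over all genes tested) lay between 0.714 and 0.995, and 1 of 13817 genes (0.00724%) passed 0.05. With DESeq2 and with limma on TPM no member passed either. Small shifts towards higher levels in Cre positive ventricles were the common pattern. In all, 35 members had a log2 fold change above 0, where 51.2% of all genes did, and the median was 0.14 against 0.0062 over all genes. With RLE scaling 34 members were above 0, Id2 turning, and on the TPM scale 40 were above 0, Bmp6, Tgfbr3, Acvr2a, Acvr2b and Bmpr2 turning. The median on the TPM scale was 0.25 to 0.26, on which all genes tested moved too (median 0.11 to 0.12, or 0.079 with no filter). Members exceeded the median of all genes by 0.13 to 0.17 under every scaling tried. An unadjusted p under 0.05 was reached by Tgfb2, Smurf2 and Skil, 6.98% of members, beside 5.83% of all genes (2.85% in the higher direction). The 95% interval of the fold change stayed within 2-fold either way for 39 of 43 members and included 0 for 40.

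All 3 Cre positive ventricles lay above all 3 Cre negative ventricles for 11 members (25.6%), beside 7.55% of all genes. These were Tgfb2, Bmp2, Ltbp2, Acvr1, Smad1, Smad4, Smad5, Smurf2, Ski, Skil and Fstl1. Only Smad6 among the members lay wholly below (2.33%, beside 6.85% of all genes). The exact permutation test gave p = 0.1 for each of these 12 members, the smallest that 3 ventricles against 3 allow. Overlap was judged on normalised counts. On the TPM scale Smad6 overlapped, whereas Inhba, Ltbp1, Ltbp4, Bmp1, Tgfbr2, Bmpr1a, Smad7 and Tgfbi were also higher in every Cre positive ventricle. All genes tested moved up on that scale (median 0.11 to 0.12), and their share without overlap was not counted there. Cre negative replicate 1 was the lowest of the 6 ventricles for 27 members (62.8%, beside 32.1% of all genes) and the highest for 7. Without it the median of the members was 0.086, 34 members were above 0 where 50% of all genes did, and no member passed the adjusted test, as 0.0143% of all genes did. Unadjusted p was then under 0.05 for Tgfb2, Ltbp2, Smurf2 and Skil, all higher in Cre positive ventricles, 4 of 43 beside 6.59% of all genes (3.58% higher and 3.01% lower). The fold change of 29 members moved closer to 0 without that ventricle.

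**Figure D1:**
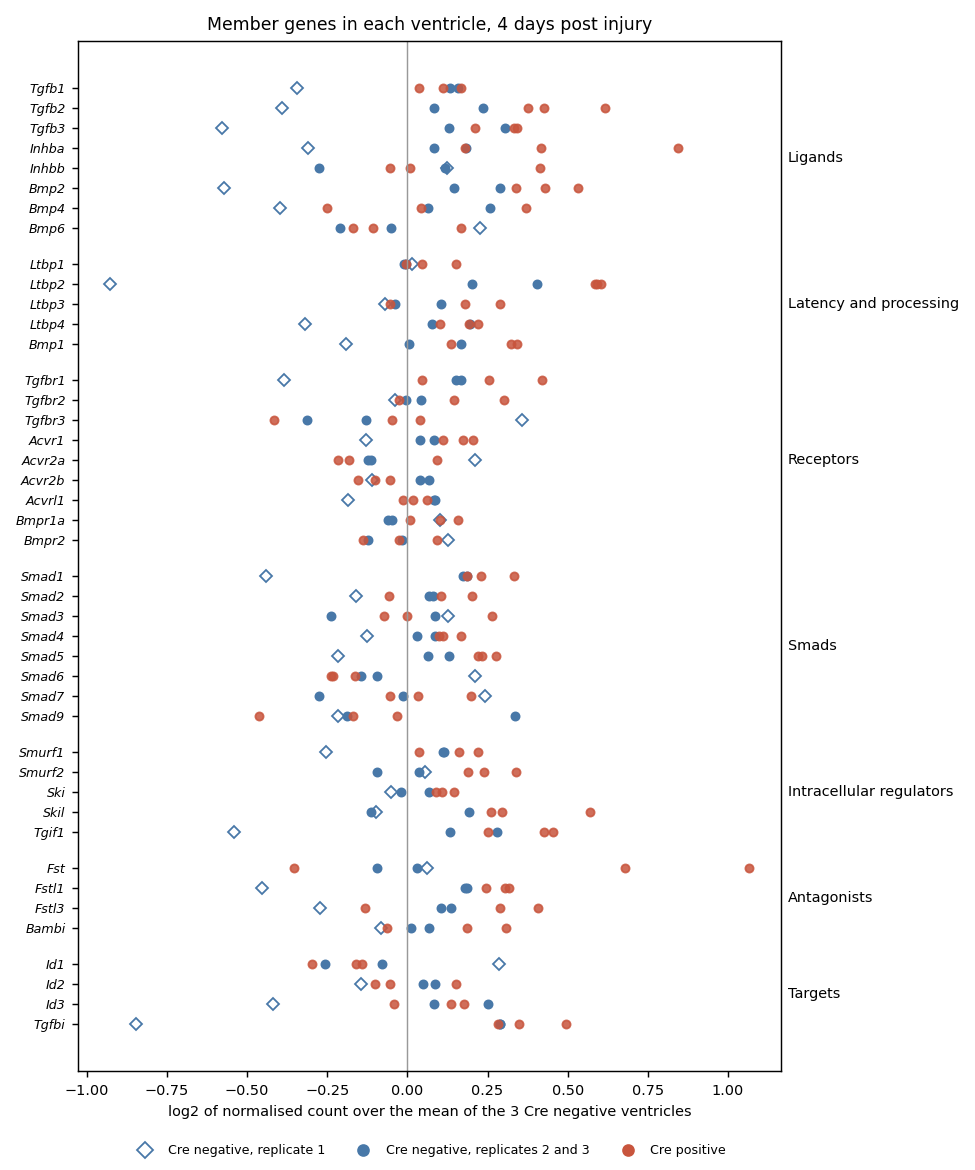
Each row is a member gene and each point a left ventricle, plotted as log2 of its normalised count over the mean of the 3 Cre negative ventricles, with Cre negative replicate 1 as open diamonds. Most Cre positive points lie right of 0 and the open diamond is the lowest point for 27 of 43 members.

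Promoters are shown for 4 members: Tgfb2 and Smurf2, which had unadjusted p under 0.05, Smad6, the member lower in every Cre positive ventricle, and Id3, the most abundant target. Skil had no entry in the promoter table. Sequences are from RefSeq on GRCm38.p6 and run 5′ to 3′ from 250 bases before an annotated start to 10 after it, and capitals mark matches to the motifs named below. The start lies inside the annotated gene for Tgfb2, Smurf2 and Smad6. For Smurf2 and Smad6 the gene's annotated 5′ end is within the printed stretch. For Tgfb2 that end, at 186709697, is outside the printed stretch, which belongs to a start further downstream. Tgfb2 (chr1:186705980-186706239, minus strand), Smurf2 (chr11:106920706-106920965, minus strand), Smad6 (chr9:64022050-64022309, minus strand) and Id3 (chr4:136143572-136143831, plus strand) read:
Tgfb2: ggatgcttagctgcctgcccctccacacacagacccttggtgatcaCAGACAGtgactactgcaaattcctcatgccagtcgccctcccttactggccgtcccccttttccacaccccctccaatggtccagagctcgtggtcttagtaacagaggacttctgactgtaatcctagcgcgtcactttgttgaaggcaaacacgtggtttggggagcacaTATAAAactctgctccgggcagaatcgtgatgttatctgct
Smurf2: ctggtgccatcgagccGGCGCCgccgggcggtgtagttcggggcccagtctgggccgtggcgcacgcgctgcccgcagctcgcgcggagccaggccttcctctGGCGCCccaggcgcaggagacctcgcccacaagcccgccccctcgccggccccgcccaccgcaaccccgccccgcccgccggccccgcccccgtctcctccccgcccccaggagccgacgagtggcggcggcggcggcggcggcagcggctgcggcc
Smad6: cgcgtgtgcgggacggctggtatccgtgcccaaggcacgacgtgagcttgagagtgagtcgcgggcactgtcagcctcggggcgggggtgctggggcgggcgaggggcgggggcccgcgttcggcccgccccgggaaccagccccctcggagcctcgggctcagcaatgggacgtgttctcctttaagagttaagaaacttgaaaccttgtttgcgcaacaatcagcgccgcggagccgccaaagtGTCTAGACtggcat
Id3: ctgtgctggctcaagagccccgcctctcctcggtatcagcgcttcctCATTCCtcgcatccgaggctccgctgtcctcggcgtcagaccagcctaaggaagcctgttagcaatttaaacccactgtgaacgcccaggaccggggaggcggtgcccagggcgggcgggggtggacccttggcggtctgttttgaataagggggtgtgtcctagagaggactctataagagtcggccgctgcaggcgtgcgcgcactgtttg

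Windows of 300 bases (250 before to 50 after a start) were found for 32 members, 42 windows in all, and 6 motifs were searched, chosen together with the promoters shown after values and matches had been seen. The TEAD motif GGAATG, bound by the DNA-binding partners of Yap and Wwtr1, was in 1 member window, that of Id3, where it reads CATTCC on the gene strand from base 203 before the start. Over all 32851 windows 14.7% held it. The Smad palindrome GTCTAGAC was in 1 member window, that of Smad6, beginning 4 bases before the start, and in 0.213% of all windows. The Smad-binding element CAGACAG was in 5 member windows (Fstl3, Ltbp1, Tgfb2, Tgfbr1 and Tgif1; 11.9%, beside 7.73% of all), and it shares its AGAC with the palindrome. GGCGCC, a GC-rich element described for BMP-responsive Smads, was in 13 member windows of 11 genes (31.0%, beside 11.9% of all), with 2 copies in Smurf2. The AP-1 motif TGACTCA was in 1 member window, that of Ltbp3 (5.2% of all windows). These were searched on both strands. TATAAA, searched on the gene strand only, was in 2 member windows, Inhba and Tgfb2 (8.32% of all windows), and in Tgfb2 it begins 31 bases before the start shown. A match is a description of these letters and was not tested for binding.

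Among ligands, Tgfb2 differed most clearly between the groups. Tgfb2 (chr1:186622787-186709697), an isoform of TGF-beta, was at 565, 786 and 872 normalised counts in Cre negative replicates 1, 2 and 3 and at 1137, 962 and 997 in Cre positive replicates 1, 2 and 3. Every Cre positive ventricle was above every Cre negative one, Cre negative replicate 1 being the lowest and Cre positive replicate 1 the highest. The mean went from 741 ± 158 to 1032 ± 92.4 (SD, n = 3 each), with log2 fold change 0.48 ± 0.16 (SE), unadjusted p = 0.0189, adjusted p = 0.714 and a 95% interval of 0.10 to 0.85. Without Cre negative replicate 1 the log2 fold change was 0.31 (unadjusted p = 0.0144), so its size depended on that ventricle. Tgfb1 (chr7:25687002-25705077), the isoform best known for fibrosis, was at 1908, 2655 and 2699 and at 2719.8, 2481 and 2615. Apart from the low Cre negative replicate 1 the groups overlapped, the log2 fold change was 0.11 ± 0.14 (SE), and without that ventricle it was -0.043, with the opposite sign. Tgfb3 was at 1207, 1975 and 2227 and at 2088, 2269 and 2287. It overlapped between groups, with a log2 fold change of 0.30 ± 0.21 (SE) that was 0.072 without Cre negative replicate 1.

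In level, the TGF-beta ligands kept 1 order in every ventricle, Tgfb1 above Tgfb3 above Tgfb2. Over the 6 ventricles Tgfb1 averaged 154 TPM, Tgfb3 78.2 and Tgfb2 23, and the ranges did not overlap. Tgfb2 was at 12.9, 20.1 and 22.1 TPM in Cre negative and 29.3, 26.8 and 26.8 TPM in Cre positive ventricles. As a share of the summed TPM of the 3 ligands, Tgfb2 made up 8.16%, 7.86% and 8.14% in Cre negative and 10.6%, 9.45% and 9.38% in Cre positive ventricles. Here Cre negative replicate 1 was level with its group, in contrast to the counts. The share of Tgfb1 was 65.6%, 62.7% and 60.4% in Cre negative and 60.2%, 57.4% and 58.3% in Cre positive ventricles, lower in every Cre positive ventricle, by a margin of under 1 percentage point between the nearest ventricles of the groups. Shares within families, 19 in 8 families, were looked at after the values were known and are given as description. None passed an exact two-sided permutation test (smallest p = 0.1, the lowest that 3 against 3 allow, and 0.317 after Benjamini-Hochberg adjustment over the 19).

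**Figure D2:**
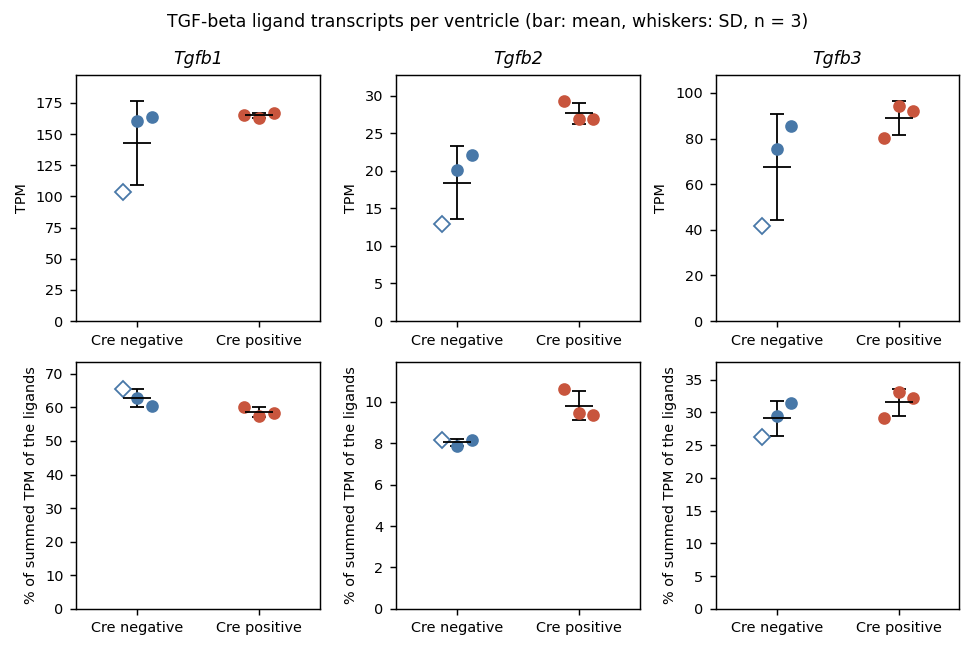
Upper panels show TPM and lower panels the percent of the summed TPM of Tgfb1, Tgfb2 and Tgfb3 in each ventricle (points), with the mean and SD of 3 ventricles per group, Cre negative replicate 1 being the open diamond. Tgfb2 is at 26.8 to 29.3 TPM in Cre positive and 12.9 to 22.1 TPM in Cre negative ventricles, and its share at 9.38% to 10.6% and 7.86% to 8.16%.

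Inhba, which encodes the subunit of activin A, was low in count, at 55.2, 72.6 and 77.7 in Cre negative and 77.6, 91.4 and 123 in Cre positive ventricles. The lowest Cre positive ventricle fell within the Cre negative range, and the statistics were log2 fold change 0.50 ± 0.23 (SE), unadjusted p = 0.0656, adjusted p = 0.714. Without Cre positive replicate 3 the log2 fold change of Inhba was 0.30. Bmp2, a BMP ligand, was at 71.7, 118 and 130.1 and 143, 154 and 135, the groups standing apart by less than 5 normalised counts. Its log2 fold change was 0.43 ± 0.22 (SE) (unadjusted p = 0.0928) and 0.21 without Cre negative replicate 1. Bmp2 made up 7.1%, 10.8% and 12.7% of the summed TPM of Bmp2, Bmp4 and Bmp6 in Cre negative ventricles and 13.6%, 13.2% and 13.5% in Cre positive ones. The remaining ligands overlapped between groups, with log2 fold changes of 0.14 for Inhbb (activin B subunit), 0.074 for Bmp4 and -0.028 for Bmp6. Bmp6 was the most abundant BMP ligand, at 20.9 TPM on average, followed by Bmp4 at 14.4. Of the 8 ligands, 7 had a log2 fold change above 0 (median 0.22) and 1 an unadjusted p under 0.05. Inhbb turned sign without Cre positive replicate 2, Bmp4 without that ventricle or Cre negative replicate 1, and Bmp6 on the TPM scale.

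All 5 latency and processing genes had log2 fold changes above 0 (median 0.17, and 0.11 without Cre negative replicate 1), none with an unadjusted p under 0.05. Ltbp2 (chr12:84783212-84876558), an LTBP family member found with elastic fibres, had the largest fold change of any member. It was at 1268, 2777 and 3192 normalised counts in Cre negative and 3670.3, 3618 and 3639 in Cre positive ventricles. Cre positive ventricles were nearly alike, whereas Cre negative replicate 1 was lower than its group mates by 2.35-fold. The statistics were log2 fold change 0.59 ± 0.29 (SE), unadjusted p = 0.0802, adjusted p = 0.714, 95% interval -0.091 to 1.28. Without Cre negative replicate 1 the log2 fold change was 0.28 and the unadjusted p 0.00786, a smaller difference with less spread around it. It was then below those of Fst (0.60), Inhba (0.37), Skil (0.33) and Tgfb2 (0.31). Within the LTBPs Ltbp2 held 8.2%, 13% and 15.7% of the summed TPM in Cre negative and 15.8%, 17.2% and 16.1% in Cre positive ventricles. Ltbp4 was the most abundant of the role in every ventricle, at 152, 243 and 224 TPM and 247, 244 and 255 TPM. The groups stood narrowly apart in TPM but overlapped in normalised counts (log2 fold change 0.17 ± 0.14 (SE), 0.031 without Cre negative replicate 1). Its share of the LTBPs was 58.4%, 60.1% and 58.2% in Cre negative and 56.2%, 57.5% and 57.1% in Cre positive ventricles. Bmp1, a protease that processes procollagen and LTBP1, had a log2 fold change of 0.27 ± 0.12 (SE) with unadjusted p = 0.0572 (0.18 without Cre negative replicate 1), Ltbp3 0.15 and Ltbp1 0.065, the last pair at 0.068 and 0.021 without Cre positive replicate 1.

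Of 9 receptors 5 were above 0, with a median of 0.021 (7 and 0.084 without Cre negative replicate 1) and none with an unadjusted p under 0.05, and the 4 below 0 (Tgfbr3, Acvr2a, Acvr2b and Bmpr2) were above 0 on the TPM scale. Tgfbr2, the type II TGF-beta receptor, was at 2401, 2463 and 2543 in Cre negative and 3043, 2424 and 2729 in Cre positive ventricles. Cre positive replicate 2 lay within the Cre negative range, and the log2 fold change was 0.15 ± 0.10 (SE), between 0.061 without Cre positive replicate 1 and 0.22 without Cre positive replicate 2. Tgfbr1, its type I partner, was at 490.2, 720.0 and 712 and 661, 857 and 764, overlapping at Cre positive replicate 1, with a log2 fold change of 0.25 ± 0.17 (SE) that was 0.084 without Cre negative replicate 1. Acvr1, a type I receptor used by BMPs, did not overlap, at 395, 457 and 444 and 467, 498 and 487 (log2 fold change 0.16 ± 0.093 (SE), unadjusted p = 0.121, 0.10 without Cre negative replicate 1). The remaining 6 receptors all overlapped in normalised counts, from -0.13 for Tgfbr3 (betaglycan, a co-receptor) to 0.09 for Bmpr1a, with 95% intervals within 2-fold either way. In TPM, Bmpr1a did not overlap, at 26.35 to 26.46 in Cre negative and 29.05 to 31.77 in Cre positive ventricles. Tgfbr2 did not overlap in TPM either, at 58.45 to 69.15 and 71.53 to 83.07. In level, Tgfbr2 (71.2 TPM) was above Acvrl1 (42.5 TPM), a type I receptor of endothelium, and Bmpr1a (28.4 TPM) in all 6 ventricles with no overlap of ranges. Tgfbr2 exceeded Tgfbr1 (16 TPM) throughout. Acvr1, Bmpr2 and Tgfbr1 had ranges that overlapped their neighbours, and Acvr2b was lowest at 1.55 TPM.

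Among the 8 Smads, 6 had log2 fold changes above 0 (median 0.079), none with an unadjusted p under 0.05, and 4 did not overlap between groups. Smad5, a BMP-responsive Smad, was at 650.0, 789 and 825 in Cre negative and 879, 914 and 886 in Cre positive ventricles, with log2 fold change 0.24 ± 0.10 (SE), unadjusted p = 0.0508, adjusted p = 0.714, and a log2 fold change of 0.14 without Cre negative replicate 1. Smad1, which shares its receptors, was at 288, 441 and 445 and 459, 493 and 445. Cre negative replicate 3 and Cre positive replicate 3 of Smad1 were within 1 normalised count, and its log2 fold change of 0.25 ± 0.17 (SE) was 0.068 without Cre negative replicate 1. Smad4, the common partner, was at 973, 1084 and 1126 and 1191, 1135 and 1145 (log2 fold change 0.12 ± 0.087 (SE), 0.062 without Cre negative replicate 1). Smad6, an inhibitory Smad acting mainly on BMP signalling, was the reverse, at 410.2, 321 and 332 in Cre negative and 301, 317 and 302 in Cre positive ventricles. Cre negative replicate 1 was the highest, the nearest ventricles of the groups were within 5 normalised counts, and the statistics were log2 fold change -0.21 ± 0.12 (SE), unadjusted p = 0.123, adjusted p = 0.714, -0.10 without that ventricle. On the TPM scale Smad6 overlapped, at 16.2, 14.3 and 15.1 TPM and 13.4, 15.6 and 14.3 TPM. Smad7, the other inhibitory Smad, overlapped in normalised counts (log2 fold change 0.064) but not in TPM, where the nearest ventricles were at 16.85 and 16.91. Smad6 made up 49%, 46% and 51.9% of the summed TPM of Smad6 and Smad7 in Cre negative and 44.2%, 43.7% and 45% in Cre positive ventricles. Smad2 and Smad3, the TGF-beta and activin Smads, had log2 fold changes of 0.086 ± 0.11 (SE) and 0.071 ± 0.13 (SE) and overlapped, and Smad2 was at 0.0089 without Cre negative replicate 1. Smad3 was at 15.8 TPM and Smad2 at 7.56 TPM on average, and Smad9, with 0.818 TPM and fewer than 50 normalised counts in each ventricle, had an interval of -0.85 to 0.43 and a log2 fold change of -0.21, -0.0077 without Cre negative replicate 3.

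All 5 intracellular regulators had log2 fold changes above 0 (median 0.26, and 0.17 without Cre negative replicate 1), and 2 of the 3 members with unadjusted p under 0.05 were among them. Skil (chr3:31095058-31122923) encodes SnoN, a corepressor that binds Smads and is itself induced by TGF-beta. It was at 516, 510.1 and 630.3 normalised counts in Cre negative and 661, 819.6 and 678 in Cre positive ventricles. No Cre positive ventricle reached down to the Cre negative ones, Cre negative replicate 3 being the closest, and the mean went from 552 ± 67.7 to 719 ± 87.3 (SD, n = 3 each). The statistics were log2 fold change 0.38 ± 0.13 (SE), unadjusted p = 0.0167, adjusted p = 0.714, 95% interval 0.091 to 0.67, and the log2 fold change was 0.33 without Cre negative replicate 1 (unadjusted p = 0.0298). Smurf2 (chr11:106820061-106920747), a ubiquitin ligase for Smads and TGF-beta receptors, was at 902, 812 and 889.5 and 988, 1098 and 1025. Cre negative replicate 1 was here the highest of its group, and leaving it out gave 0.28 (unadjusted p = 0.0106) against log2 fold change 0.26 ± 0.087 (SE), unadjusted p = 0.0187, adjusted p = 0.714. Ski, a corepressor related to Skil and the most abundant gene of the role (61.8 TPM), was at 2396, 2604 and 2449 and 2749, 2643 and 2675, a separation with a small log2 fold change of 0.11 ± 0.082 (SE). Tgif1, a homeodomain corepressor, was at 244, 390.4 and 432 and 423, 487 and 478, overlapping between Cre negative replicate 3 and Cre positive replicate 1 (log2 fold change 0.38 ± 0.20 (SE), 0.17 without Cre negative replicate 1). Smurf1 overlapped, at 0.14, and at 0.026 without Cre negative replicate 1. Tgfb2, Smurf2 and Skil each kept an unadjusted p under 0.05 without Cre negative replicate 3 and without Cre positive replicate 3. Without Cre negative replicate 2 it was lost for Smurf2 (log2 fold change 0.21) and Skil (0.33), without Cre positive replicate 1 for Tgfb2 (0.40), and without Cre positive replicate 2 for Smurf2 (0.21) and Skil (0.28).

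**Figure D3:**
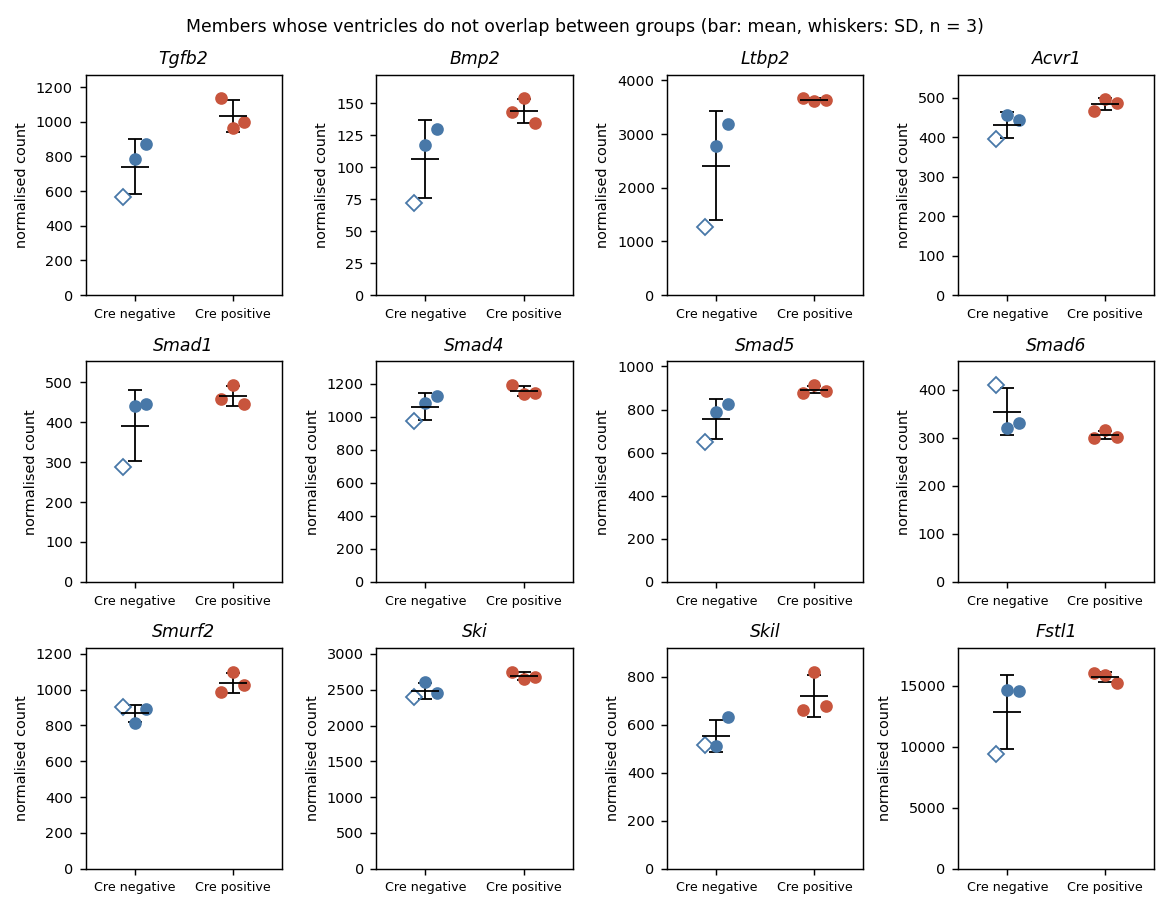
Normalised counts per ventricle (points) with mean and SD of 3 ventricles per group, for the 12 members whose groups did not overlap, Cre negative replicate 1 being the open diamond. For Smurf2 and Skil the Cre negative ventricles are close together at 812 to 902 and 510 to 630.3, whereas for Ltbp2 and Fstl1 the open diamond is far below the rest.

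The 4 antagonists tested had log2 fold changes above 0 (median 0.25, and 0.11 without Cre negative replicate 1), none with an unadjusted p under 0.05. Fst, or follistatin, which binds activins, was at 54.1, 53 and 48.6 in Cre negative ventricles and spread over 108, 40.6 and 83 in Cre positive ones. Cre positive replicate 2 was the lowest of all 6 ventricles and replicate 1 the highest, so the log2 fold change of 0.57, the second largest of the members, came with an SE of 0.34 and a 95% interval of -0.23 to 1.38. It was 0.25 without Cre positive replicate 1 and 0.88 without Cre positive replicate 2. Fstl1, a secreted follistatin-like glycoprotein made by mesenchymal cells of the heart, was the most abundant member, at 302, 524 and 524 TPM in Cre negative and 578, 618 and 576 TPM in Cre positive ventricles. In normalised counts it was at 9389.7, 14627 and 14574 and 16038, 15892 and 15242, without overlap, with Cre negative replicate 1 far below the rest (log2 fold change 0.29 ± 0.18 (SE), 0.10 without it). Fstl3, a follistatin relative, and Bambi, a pseudoreceptor without kinase activity, overlapped between groups at 0.20 and 0.15. Fstl3 was at 0.082 without Cre negative replicate 1 and Bambi at 0.067 without Cre positive replicate 1.

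In normalised counts the groups overlapped for each of the 4 targets, of which 3 were above 0 (median 0.048), and 1 without Cre negative replicate 1 (median -0.052). Tgfbi, a matrix protein named for its induction by TGF-beta, was at 1453, 3196 and 3193 in Cre negative and 3324, 3680.0 and 3183 in Cre positive ventricles. Only Cre negative replicate 1 stood apart, 2.2-fold below the mean of its group mates, and the log2 fold change of 0.38 ± 0.27 (SE) was 0.084 without it. Id3, a BMP-responsive inhibitor of basic helix-loop-helix factors, was at 1024, 1451 and 1630.5 and 1331, 1503 and 1545 (log2 fold change 0.092 ± 0.17 (SE), -0.082 without Cre negative replicate 1). The other BMP targets of the family were at -0.20 (Id1, -0.035 without Cre negative replicate 1) and 0.0031 (Id2), the second with an interval of -0.25 to 0.26. Id3 made up more of the summed TPM of the Id genes than Id1 and Id2 in each ventricle, 55.4%, 66% and 69.7% in Cre negative and 66.7%, 66.6% and 69.1% in Cre positive ventricles.

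**Figure D4:**
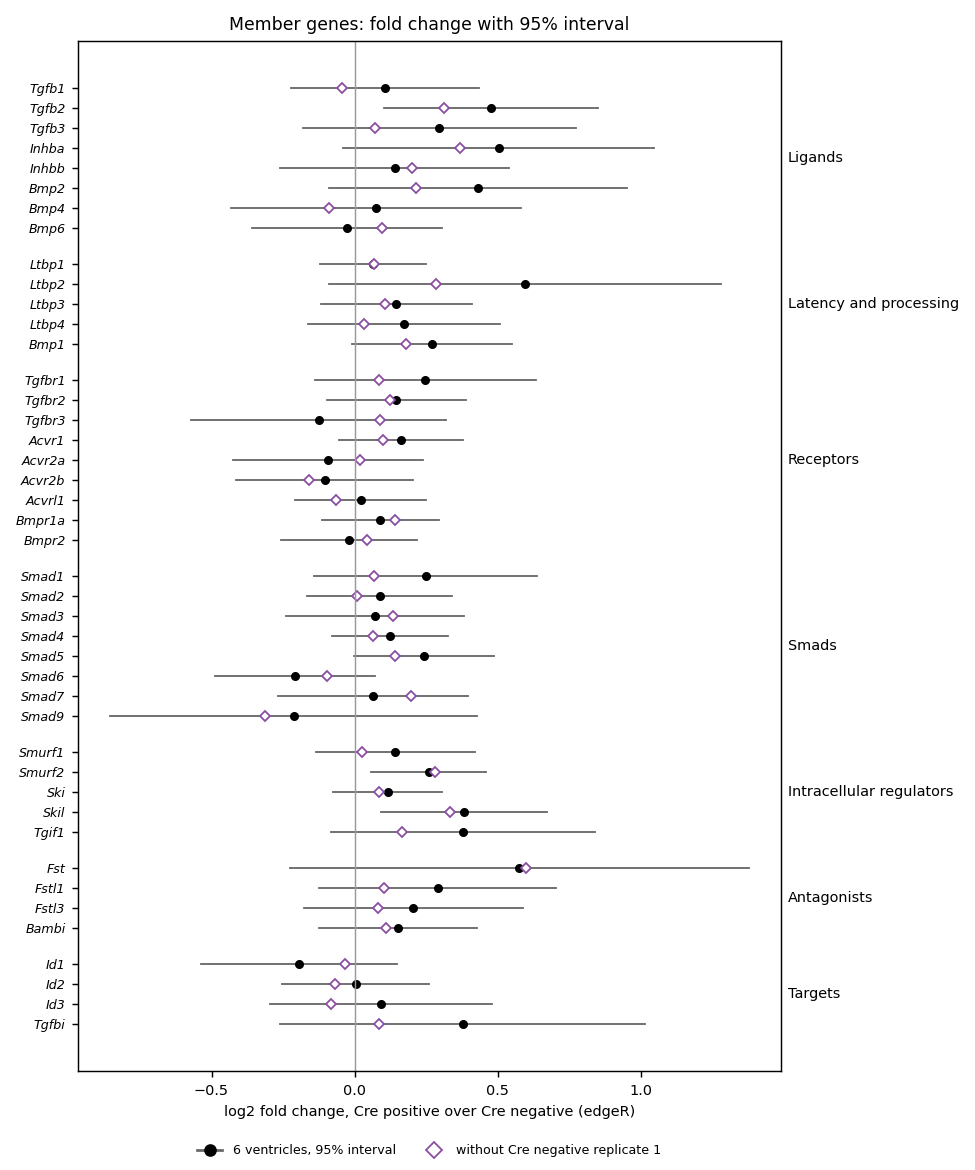
Log2 fold change of each member, Cre positive over Cre negative, with its 95% interval (edgeR, 3 ventricles against 3), and the same value without Cre negative replicate 1 as open diamonds. Intervals of Tgfb2, Smurf2 and Skil lie right of 0, the interval of every other member includes 0, and most open diamonds lie closer to 0 than the full value.

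Pathway genes outside the members did not pass the test either. In 5 lists of further ligands, receptors, antagonists, latency and activation genes and intracellular genes, 60 genes were tested, 39 with log2 fold changes above 0 and 21 below (median 0.082, and 0.10 without Cre negative replicate 1). Of all genes, 51.2% were above 0. An unadjusted p under 0.05 was reached by 5 in the higher and 2 in the lower direction, beside 2.85% and 2.98% of all genes. Of these, the ones tied to TGF-beta activation were Thbs1, a matricellular activator of latent TGF-beta, and Itgav, the integrin chain that pulls it free. Thbs1 was at 2764, 2463 and 3287 in Cre negative and 4452, 3992 and 3793 in Cre positive ventricles (log2 fold change 0.52 ± 0.13 (SE), unadjusted p = 0.00397, adjusted p = 0.714). Itgav was at 716, 928 and 1059 and 1133, 1325 and 1154 (log2 fold change 0.42 ± 0.15 (SE), 0.27 without Cre negative replicate 1). Both were higher in every Cre positive ventricle. Of 14 latency and activation genes tested 13 had log2 fold changes above 0, beside the 51.2% of all genes (median 0.26, and 0.14 without Cre negative replicate 1). The BMP modulators Bmper, at 214, 232 and 262 and 334, 279 and 394, and Crim1, at 676, 679.8 and 633 and 788, 805 and 699, and the BMP-family ligand Gdf6, at 155, 196 and 218 and 309, 359 and 221, were also higher in each Cre positive ventricle. Inha, the inhibin alpha chain, was lower in each, at 141, 119 and 109 and 72.6, 89.5 and 78.1 (log2 fold change -0.61 ± 0.17 (SE)), and Tab1, an adaptor of the kinase TAK1, was at 433, 409 and 457 and 340.4, 319 and 410.0 with overlap.

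Genes known to respond to TGF-beta, 16 in a separate list, had log2 fold changes above 0 in 14 cases, where 51.2% of all genes did (median 0.35, and 0.14 without Cre negative replicate 1). That ventricle was the lowest for 13 of them, beside 32.1% of all genes. None passed the adjusted test. Timp1, an inhibitor of matrix metalloproteinases, was at 1666, 2727 and 2647 and 3523, 2905 and 3238 (log2 fold change 0.46 ± 0.19 (SE), 0.26 without Cre negative replicate 1, unadjusted p = 0.0431 with all ventricles), higher in every Cre positive ventricle. Postn was the other gene with an unadjusted p under 0.05, in the lower direction, where 5.83% of all genes reached it in either direction. The periostin locus carries the MerCreMer insertion in Cre positive mice. Lists were assembled with earlier results of these data known and are given as description.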

How the data were processed

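Left ventricles of 3 Cre positive and 3 Cre negative mice were compared, grouped by the submitters' labels. The labels give no litter, sex or batch, so p-values measure the spread between these 6 ventricles, which may be in part technical. The authors deposited estimated counts, TPM and FPKM for each of 17556 genes. The deposited estimated counts are not normalised, and 11.46% of them are not whole numbers. The TPM values deposited by the authors are adjusted for gene length and sum to a fixed total in each ventricle. FPKM values, likewise deposited by the authors per gene length and library size, were not used. A comparison of the genotypes made by the authors, with fold changes and p-values, was not used. The submitters' processing notes name Bowtie2 2.2.5, RSEM 1.2.12 and GRCm38.p6, without their roles. Gene positions and promoters are from RefSeq on GRCm38.p6.

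After rounding the estimated counts, the quasi-likelihood test of edgeR 4.0.16 (R 4.3.3) compared genotypes with no covariate, using TMM factors and the genes that filterByExpr retained (minimum count 10, minimum total 15). Benjamini-Hochberg adjustment ran over 13817 genes and the threshold was 0.05. Normalised counts were scaled by TMM to a library of mean size, 14264187. For each member an exact permutation test (two-sided, scipy 1.17.1, Python 3.11.15) was run, in which 3 against 3 cannot give a p under 0.1. Alternatives were other scaling factors, other filters, DESeq2 1.42.0, limma 3.58.1 on log2(TPM + 1) or log2(TPM + 0.1), the replicate number as a block, Y-linked counts as a covariate, and leaving out each ventricle. Figures were drawn with matplotlib 3.10.9. Tested on simulated counts of 13712 genes for this comparison, the fit recovered 69 of the 100 genes with a 2-fold change and 94 of the 100 with a 4-fold change, and it called 5 of 13512 genes that had none.

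Members and lists were chosen with earlier results of these data known. Members given with values in every ventricle were the TGF-beta ligands, Tgfbr1 and Tgfbr2, those with unadjusted p under 0.05 or without overlap between groups, the 8 largest fold changes and the most abundant gene of each role. Outside the members, genes of the pathway lists with unadjusted p under 0.05 were named. Marker genes of cell types with unadjusted p under 0.05 were named after their values were seen.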

Additional observations from a re-analysis of the deposited data

How the results depend on the processing

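No member passed the adjusted test under any setting tried, the smallest adjusted p being 0.509. Of 730 values of members under other settings, 687 kept their direction and 43 turned, in 13 members, and 30 members did not turn in any setting. The number of all genes with adjusted p under 0.05, 1 with edgeR, was 5 with DESeq2, 2 with limma on log2(TPM + 1) or log2(TPM + 0.1), 3 with limma and no filter, 2 with Y-linked counts as a covariate split at 1 CPM (counts scaled to a fixed library total), and 0 to 2 when 1 ventricle was left out. The number of members with unadjusted p under 0.05, 3 with edgeR, was 5 with DESeq2, 8, 7 and 8 with limma on log2(TPM + 1), on log2(TPM + 0.1) and with no filter, and 1 to 8 when 1 ventricle was left out (1 without Cre negative replicate 2, 8 without Cre negative replicate 3). Over all genes the same counts, 806 of 13817 with edgeR, were 812 with DESeq2, 999 and 972 with limma, 1182 of 17556 with no filter, 902 of 13971 without Cre negative replicate 2 and 1346 of 14002 without Cre negative replicate 3. The members' median log2 fold change was 0.25, 0.26 and 0.25 in the same 3 limma fits, in which all genes tested had a median of 0.11, 0.12 and 0.079. The split at 1 separated only Cre positive replicate 2 (0.81 CPM), although Cre negative replicate 2 was near it at 1.1 CPM and the others at 110 to 142. That fit is therefore close to leaving out Cre positive replicate 2. A split at 10, which separates that ventricle and Cre negative replicate 2, was added after seeing the data. With the split at 1, Tgfb2, Bmp1 and Fst were the members with unadjusted p under 0.05, among 356 of 13817 genes. Smurf2 and Skil, with log2 fold changes of 0.21 and 0.28 in that fit, were not. With the split at 10 they were Tgfb2, Smurf2 and Skil, among 688 genes. The labels give no sex.

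Replicate numbers are shared between groups, but deviations of same-numbered ventricles did not move together throughout (r = 0.34, 0.058 and -0.031 across genes), so they were taken as numbers only. With the replicate number as a block, 0 genes passed the adjusted test, 1217 genes (806 without the block) and 9 members had an unadjusted p under 0.05.

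Members that turned sign had log2 fold changes between -0.13 and 0.14 in the edgeR fit. With limma on log2(TPM + 1), log2(TPM + 0.1) and no filter, log2 fold changes were 0.089, 0.092 and 0.089 for Bmp6, 0.0038, 0.0045 and 0.0038 for Tgfbr3, 0.064, 0.072 and 0.064 for Acvr2a, 0.034, 0.055 and 0.034 for Acvr2b and 0.090, 0.095 and 0.090 for Bmpr2. With the Y-linked split at 1 they were -0.022 for Inhbb, -0.10 for Bmp4, 0.010 for Bmp6, -0.0098 for Smad7 and -0.078 for Id2. Id2 was at -0.0061 with RLE factors, -0.0064 with DESeq2 and -0.00026 with the split at 10. When 1 ventricle was left out, values ran from -0.043 to 0.19 for Tgfb1, -0.022 to 0.22 for Inhbb, -0.10 to 0.22 for Bmp4, -0.14 to 0.095 for Bmp6, -0.26 to 0.087 for Tgfbr3, -0.20 to 0.019 for Acvr2a, -0.066 to 0.066 for Acvrl1, -0.081 to 0.043 for Bmpr2, -0.038 to 0.14 for Smad3, -0.057 to 0.20 for Smad7, -0.079 to 0.051 for Id2 and -0.082 to 0.24 for Id3. Causes were not tested. Smad9, Fst and Inhba had the fewest counts of the members.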
